A study of Oryza sativa with 12 samples.

Results

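Potassium transporters and channels of rice were followed in roots of the varieties Bala and Azucena grown with or without arsenate. Members were the genes with a probe set of their own on the array whose symbol or a synonym, without a leading Os, began with HAK, HKT, AKT, KAT, TPK or KCO, and the probe set with the highest mean signal stood for each gene. The rule found 28 of the 17905 genes that a probe set named: 22 HAK genes, 1 HKT gene, 1 AKT gene, 2 KCO genes and 2 TPK genes. No KAT gene was matched. A further 11 genes of the rule stand in the gene table without a probe set named for them and were not analysed here (HKT1;1, HKT1;3, HKT1;4, HKT2;1, HKT2;3, HKT2;4, OsHAK6, OsHAK19, OsHAK24, OsKCO3 and OsTPK1).

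Root RNA was hybridised to 12 Affymetrix Rice Genome arrays in 4 groups of 3: Bala arsenate, Bala control, Azucena arsenate and Azucena control. Seedlings stood for 7 days in hydroponic culture with 1 ppm (13.3 uM) arsenate or with 0 ppm, under 12 hours of light. Of the pair, Bala tolerates arsenate better than Azucena does. Each array held RNA pooled from 4 plants of a single pot. The experiment was run 3 times independently, each time with all 4 groups, and arrays are numbered by experiment.

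Plant roots take up potassium by high-affinity transporters, which can work against a steep gradient, and by inward-rectifying channels, which serve when potassium is more plentiful. The HAK family (also KUP/HAK/KT) carries potassium, and some members sodium, across the plasma membrane or the vacuolar membrane, whereas AKT channels belong to the Shaker type. HKT proteins carry sodium, or sodium with potassium, and several of them withdraw sodium from the xylem. The KCO genes encode tandem-pore potassium channels of vacuolar membranes, which are also written TPK followed by a letter. TPK followed by a number is in rice the symbol of thiamine pyrophosphokinases, enzymes of thiamine use, so OsTPK2 and OsTPK3 matched the rule by their letters. The annotation holds no descriptions by which this could be checked. Both genes stay in the counts, shares, medians and figures of the members unless said otherwise.

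Values are MAS5 probe set signals on a linear scale. Tests used limma on log2(signal + 2.1) with the experiment as a block, on all probe sets with a mean signal above 9.4, and a change passed at an adjusted p below 0.05. Of the 28 members 23 were tested, among them 17 HAK genes. The 5 below the filter were OsHAK13, OsHAK20, OsHAK22, OsHAK26 and OsHAK27, with signals between 0.1 and 15.3 on all arrays. OsHAK27 is the neighbour of OsHAK16 on chromosome 3, with no other protein-coding gene between them in assembly ASM3414082v1. OsHAK27 read 0.1 to 9.8. Signals of different probe sets are not set against each other here.

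As for the samples, the root silicon channel OsNIP2;1 (Lsi1) read 1174 or more on all 12 arrays, but the root markers moved with arsenate. Of 8 tested root markers, 4 fell in Bala and 5 in Azucena and none rose. Their median log2 change was -1.76 in Bala and -2.01 in Azucena, and all 8 were negative in both. These markers were Lsi1, Lsi2, OsNramp5, OsAMT1;2 and phosphate transporter genes named OsPT1, so all are genes of nutrient transport. Whether their fall reflects less root tissue or a change in these genes alone was not tested. The summed signal of the 9 matched root markers was 2291 to 6635 in Bala arsenate against 11555 to 15383 in Bala control. In Azucena it was 2692 to 5544 with arsenate against 14174 to 15134 in control. The marker not tested, PT2, read 0.6 to 11.9. It also bears the name OsGRF4, so it may have matched by its letters alone. Lsi2, the silicon exporter, read 467, 178 and 1087 in Bala arsenate against 4211, 2908 and 4500.3 in Bala control, and 458.5, 527 and 639 in Azucena arsenate against 4336, 4116 and 3991 in Azucena control. The summed signal of 8 green tissue markers ran from 130.4 to 3087 in Bala arsenate, 905.1 to 3172 in Bala control, 85.1 to 105.7 in Azucena arsenate and 142.3 to 1963 in Azucena control. The 2 highest sums outside the Bala controls came from Bala arsenate 3 and Azucena control 3. Of these, CAB2R, a chlorophyll-binding protein, read 35.8 to 2650.4 over the 12 arrays. As a sign of RNA quality, GAPDH control probe sets had a 3' to 5' ratio of 3.53 to 3.78 in Bala arsenate against 1.43 to 2.17 in Bala control, and 8.86 to 23.8 in Azucena arsenate against 7.58 to 8.60 in Azucena control. The actin ratio was 6.82 to 8.59 in Bala arsenate against 2.54 to 3.66 in Bala control, and 5.15 to 8.45 in Azucena arsenate against 2.24 to 6.87 in Azucena control. The cyclophilin ratio was 2.08 to 2.90 in Bala arsenate against 1.88 to 2.44 in Bala control, and 2.46 to 3.23 in Azucena arsenate against 2.08 to 2.54 in Azucena control. The green marker sum was lower with arsenate in each pair of an experiment, and the GAPDH and actin ratios were higher. The part of the root markers, the green markers and these ratios in the results below was not tested.

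The question of the arsenate comparison was which of these genes respond in the roots of each variety. In both varieties arsenate lowered the uptake genes OsHAK1 and OsAKT1 and the HAK genes OsHAK7 and OsHAK10, and raised OsHAK16. In Bala 6 of the 23 tested members passed (2 higher, 4 lower), or 26.1%, where 12.7% of all 15638 tested genes passed (6.98% higher, 5.71% lower). In Azucena 7 passed (1 higher, 6 lower), or 30.4%, where 22.7% of all tested genes passed (12.4% higher, 10.3% lower). Of the members called, 5 were shared, which is 83.3% of the Bala calls and 71.4% of the Azucena calls, and these 5 had the same direction in both varieties. Over all tested genes, 1401 were called in both, or 70.6% of the Bala calls and 39.4% of the Azucena calls, and 1391 of them had the same direction. Whether the members' overlap differs from this was not tested. The median log2 change over the tested members was 0.05 in Bala, against 0.08 over all tested genes, and 0.08 in Azucena, against 0.14 over all tested genes. Without experiment 1 the counts were 0 in Bala and 2 in Azucena, and without experiment 2 they were 0 in Bala and 1 in Azucena. Without experiment 3 they were 7 in Bala and 8 in Azucena. Calls over all tested probe sets were fewer in each of these fits, most of all without experiment 1 or 2. In Bala there were 612 without experiment 1, 429 without experiment 2 and 2833 without experiment 3, against 3379 with all arrays. In Azucena there were 1368 without experiment 1, 858 without experiment 2 and 5419 without experiment 3, against 5989 with all arrays. In bulk root RNA, fewer cells of a type and less RNA per cell cannot be told apart. Without single arrays the Bala count fell to 3 (Bala arsenate 2) and the Azucena count to 3 (Azucena control 1) and 4 (Azucena control 2, Azucena arsenate 2). Over all tested probe sets the Bala calls fell to 1693 without Bala arsenate 2. The Azucena calls fell to 2920 without Azucena control 1, 2683 without Azucena control 2 and 2970 without Azucena arsenate 2.

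**Figure D1:**
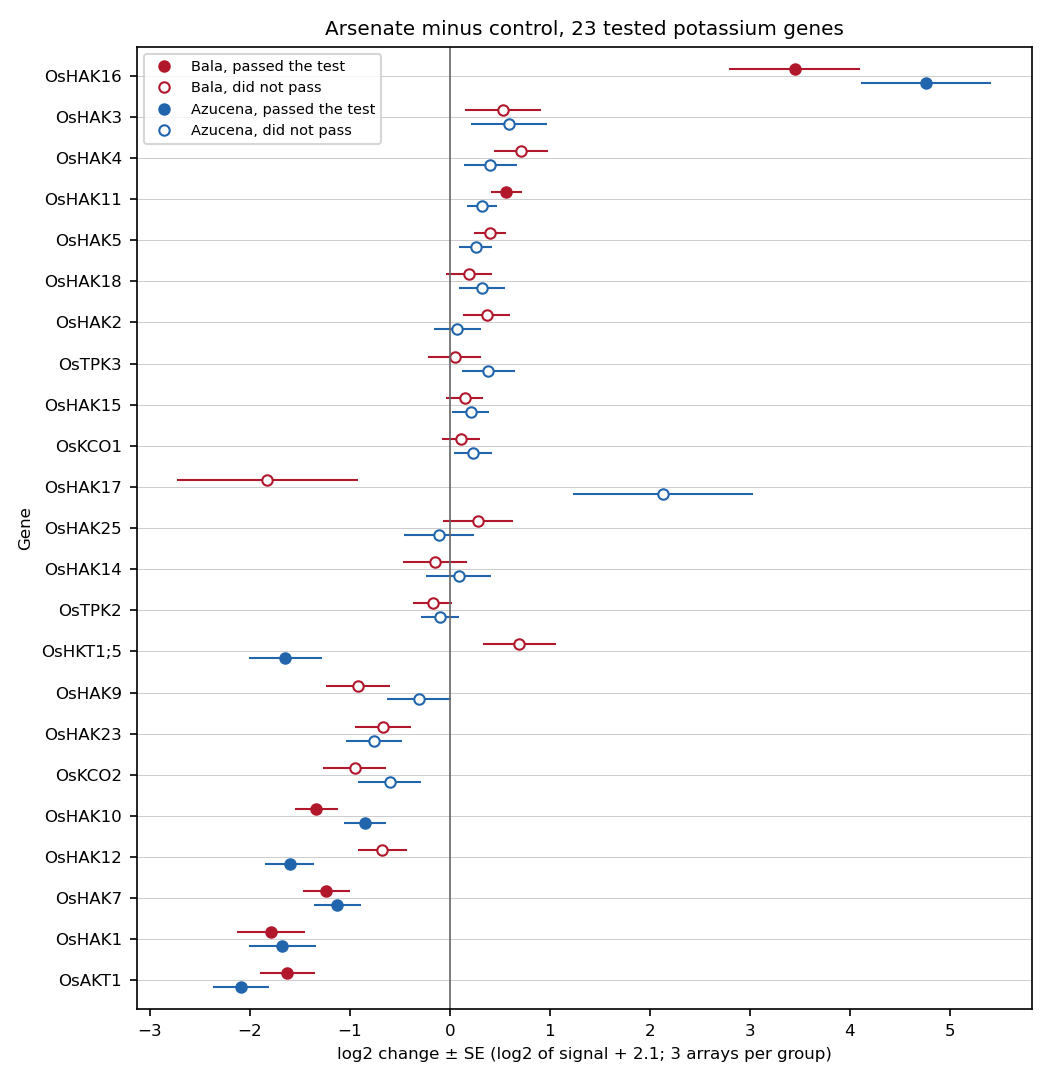
Log2 change (arsenate minus control) with its standard error for the 23 tested members, with Bala in red above Azucena in blue; filled points passed the limma test and open points did not. OsHAK16 stands at the right with 3.45 in Bala and 4.76 in Azucena, and OsAKT1 and OsHAK1 lie at the lower end in both varieties.

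OsHAK1 (LOC4335729, chromosome 4) encodes a high-affinity potassium transporter of the root that is known to be induced by potassium starvation. Its signal was 1184, 1065 and 632 in Bala arsenate against 5202, 4070 and 1557 in Bala control. In Azucena it was 639, 994 and 805 with arsenate against 3496, 3454 and 1379 in control. The groups did not overlap in either variety, and the control of experiment 3 was the lowest of its group in both. The log2 change was -1.79 ± 0.34 (SE) in Bala (adjusted p = 0.0119) and -1.67 ± 0.34 in Azucena (adjusted p = 0.0106), lower in 3 of 3 experiments each. A second probe set of the gene gave -2.44 ± 0.44 in Bala and -1.92 ± 0.44 in Azucena, both past the test. The Bala call was lost in 5 of 26 alternatives, with adjusted p from 0.00374 to 0.166 over all 26. The losses came without experiment 1 or 2, without Bala control 1 (adjusted p 0.0521) and without Bala arsenate 2 (0.0523). It was also lost when Bala arsenate 3 and Azucena control 3 were both left out (0.0605). The Azucena call was lost in 5 of 26 alternatives, among them without Azucena control 1 (0.0501) or 2 (0.0508), within 0.00338 to 0.147.

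OsAKT1 (LOC4326245, chromosome 1) encodes the inward-rectifying Shaker channel of root potassium uptake. It read 222.9, 229 and 151 in Bala arsenate against 644, 445 and 801 in Bala control. In Azucena it read 75.6, 79.2 and 94.3 with arsenate against 286, 363 and 442 in control. Each arsenate array lay below each control array of its variety. The log2 change was -1.62 ± 0.28 in Bala (adjusted p = 0.00752) and -2.09 ± 0.28 in Azucena (adjusted p = 0.00178), lower in 3 of 3 experiments each. The Azucena call was kept in all 25 alternatives run (adjusted p 2.51e-04 to 0.0436). The Bala call was lost with only the Bala arrays in the fit (adjusted p 0.0634) and without experiment 1 (0.0889) or 2 (0.0631), within 0.00170 to 0.0889 over 25 alternatives. The gene has 1 probe set, of the x_at type, which can bind other transcripts as well.

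OsHAK7 and OsHAK10 are further HAK transporters. OsHAK7 (LOC4344235) read 969.6, 821 and 871 in Bala arsenate against 2185, 2156 and 1916 in Bala control. In Azucena it read 590.4, 749 and 982 with arsenate against 1790.1, 1861 and 1352 in control. Arsenate and control arrays of OsHAK7 were apart in both varieties, with changes of -1.23 ± 0.23 in Bala (adjusted p = 0.0115) and -1.12 ± 0.23 in Azucena (adjusted p = 0.0114). Its second probe set gave larger changes, -1.87 ± 0.34 in Bala and -1.83 ± 0.34 in Azucena. The Bala call of OsHAK7 was lost in 4 of 26 alternatives, with adjusted p from 0.00174 to 0.171 over all 26. The losses came without experiment 1 or 2 and without Bala arsenate 2 (adjusted p 0.0534). It was also lost when Bala arsenate 3 and Azucena control 3 were both left out (0.0520). The Azucena call was lost in 6 of 26 alternatives, within 0.00200 to 0.166. Among them were the fits without Azucena control 1 (0.0549), Azucena control 2 (0.0591) or Azucena arsenate 2 (0.0504).

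OsHAK10 (LOC4341573), which was placed on the vacuolar membrane when expressed in plant cells, is 1 of 2 members on chromosome 6. It read 297, 276 and 379.9 in Bala arsenate against 895, 852 and 658 in Bala control. In Azucena it read 357, 473 and 427 with arsenate against 735, 818 and 698 in control. The groups did not overlap in either variety, and the change was -1.33 ± 0.21 in Bala (adjusted p = 0.00548) and -0.84 ± 0.21 in Azucena (adjusted p = 0.0239). The second probe set passed in both too, with -1.41 ± 0.24 in Bala and -0.98 ± 0.24 in Azucena. The Bala call of OsHAK10 was lost with only the Bala arrays in the fit (adjusted p 0.0619) and without experiment 1 (0.103) or 2 (0.125), within 8.02e-04 to 0.125. Single arrays decided the Azucena call, which was lost in 10 of 26 alternatives, within 0.00767 to 0.201. Among them were the fits without Azucena control 1 (adjusted p 0.0837), 2 (0.0958) or 3 (0.0571). Others were without Azucena arsenate 1 (0.0945) or 2 (0.0581) and without the filter (0.0893).

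OsHAK16 (LOC4333298, chromosome 3), known for potassium acquisition and its transport to the shoot, was the 1 member that rose in both varieties. Its signal was 801, 1003 and 366 in Bala arsenate against 66.6, 87.6 and 35 in Bala control. In Azucena it was 521, 1070.4 and 1378 with arsenate against 71.8, 59.1 and 6.5 in control. All arsenate arrays read several times higher than all controls, and Azucena control 3 stood below the filter value of 9.4. The log2 change was 3.45 ± 0.65 in Bala (10.9-fold, adjusted p = 0.0120) and 4.76 ± 0.65 in Azucena (27.1-fold, adjusted p = 0.00209), higher in 3 of 3 experiments each. Over the alternatives it ranged from 3.29 to 3.84 in Bala and from 3.48 to 5.73 in Azucena. The Bala call was lost without Bala arsenate 1 (adjusted p 0.0528) and without experiment 1 (0.0744) or 2 (0.146), within 0.00261 to 0.146 over 25 alternatives. The Azucena call was lost without experiment 2 (0.0522), within 4.02e-04 to 0.0522.

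**Figure D2:**
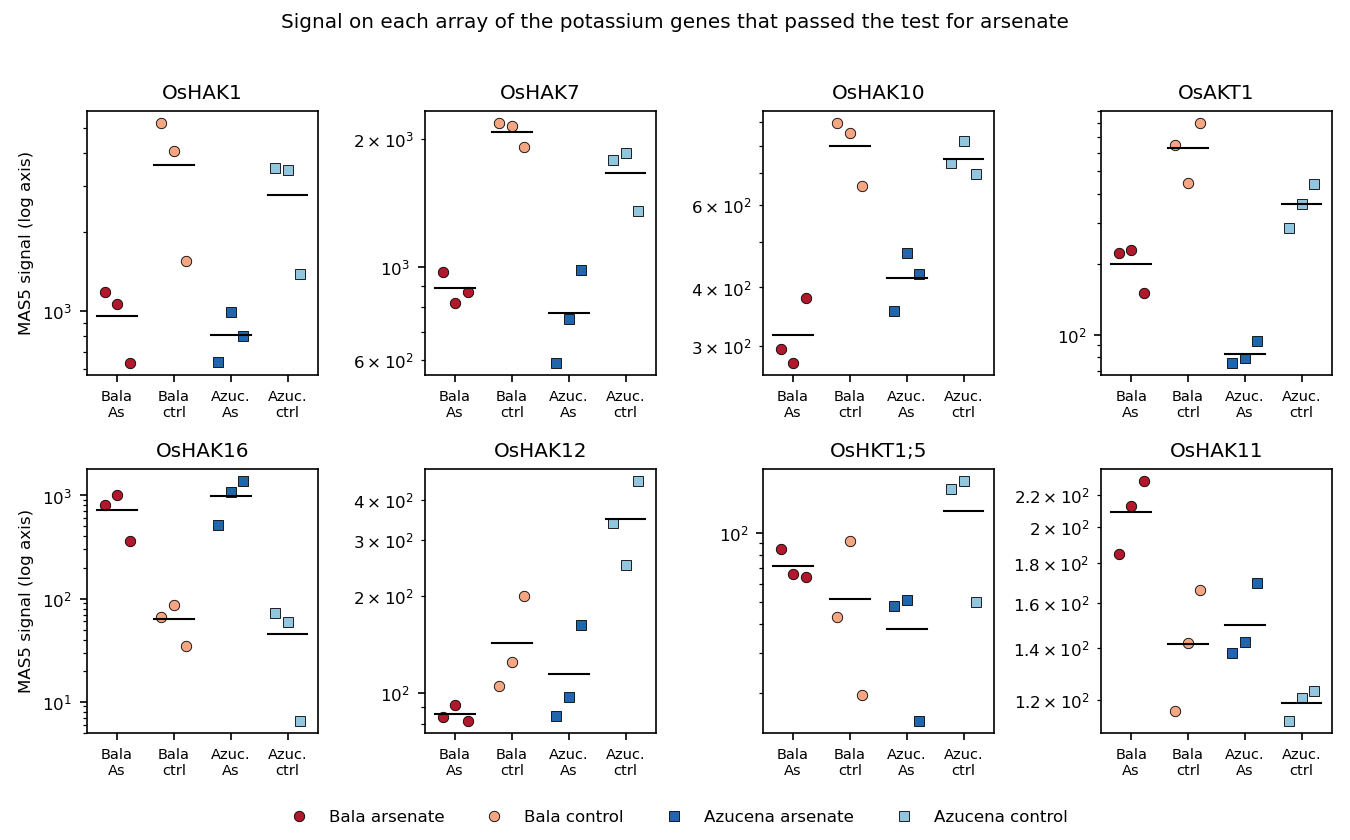
MAS5 signal (log axis) of the 8 members that passed the arsenate test in at least 1 variety; each point is an array, ordered by experiment within a group, and the line is the group mean. Arsenate arrays lie below control arrays for OsHAK1, OsHAK7, OsHAK10 and OsAKT1 and above them for OsHAK16, in both varieties.

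Sodium-handling members and a further HAK gene passed in a single variety. OsHAK12 (LOC9270408), a transporter known to limit the sodium that reaches the shoot, read 84.1, 91.3 and 81.5 in Bala arsenate against 104.5, 125 and 199 in Bala control. In Azucena it read 84.5, 97 and 163 with arsenate against 339, 249 and 457 in control. Arsenate arrays lay below controls in both varieties, and the change was -0.67 ± 0.25 in Bala (adjusted p = 0.113) and -1.60 ± 0.25 in Azucena (adjusted p = 0.00329). The Azucena call of OsHAK12 was lost without experiment 1 (adjusted p 0.0702) or 2 (0.0566), within 8.82e-04 to 0.0702 over 25 alternatives.

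OsHKT1;5 (LOC4327757, also SKC1) encodes a sodium transporter that withdraws sodium from the xylem. It read 85.2, 66.1 and 64.0 in Bala arsenate against 42.7, 92.4 and 19.7 in Bala control. In Azucena it read 47.8, 50.8 and 15.1 with arsenate against 154, 168 and 50 in control. The groups overlapped in both varieties, although Azucena arsenate was the lower in 3 of 3 experiments. The change of OsHKT1;5 was 0.70 ± 0.36 in Bala (adjusted p = 0.25) and -1.64 ± 0.36 in Azucena (adjusted p = 0.0153). The Azucena call was lost in 6 of 25 alternatives, within 0.00561 to 0.134. Among them were no replicate block (0.0836) and the fits without Azucena control 1 (0.0667), Azucena control 2 (0.0635) or Azucena arsenate 2 (0.0542).

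OsHAK11 (LOC4336979) passed in Bala with the smallest change of the called members. It read 185, 213 and 229 in Bala arsenate against 116, 142 and 166 in Bala control, and 138, 142.5 and 169 in Azucena arsenate against 113, 121 and 123 in Azucena control. Arsenate arrays were above controls in both varieties, by 0.56 ± 0.15 in Bala (adjusted p = 0.0468) and 0.32 ± 0.15 in Azucena (adjusted p = 0.165). The Bala call of OsHAK11 was lost in 21 of 25 alternatives, among them no replicate block (0.0740), centring each array on its median (0.231), quantile normalization (0.0597) and the removal of any 1 of the 12 arrays (0.0521 to 0.152), with a full range of 0.0206 to 0.307.

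The other 15 tested members did not pass in either variety. OsHAK5 (LOC4326945), a high-affinity transporter of root uptake and of potassium delivery to the shoot, read 4858, 4964 and 4482 in Bala arsenate against 3957, 3599 and 3295 in Bala control. In Azucena it read 3654, 4085 and 3909 with arsenate against 3607, 3497 and 2693 in control. Each arsenate array was above the controls of its variety, but the changes were small, 0.40 ± 0.16 in Bala (adjusted p = 0.147) and 0.26 ± 0.16 in Azucena (adjusted p = 0.283). The second probe set of OsHAK5 had 0.85 ± 0.63 in Bala and 0.87 ± 0.63 in Azucena.

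Nearest to the threshold in Bala was OsKCO2 (TPKb), a tandem-pore channel of storage vacuoles, at -0.95 ± 0.32 (adjusted p = 0.0866), and in Azucena OsHAK23 at -0.75 ± 0.28 (adjusted p = 0.0864). OsHAK23 read 322, 247 and 409 in Bala arsenate against 559, 529.6 and 443 in Bala control, and 351, 281 and 601 in Azucena arsenate against 732, 673 and 582.1 in Azucena control. The array Azucena arsenate 3 fell within the controls. Without it the Azucena change was -1.07 (adjusted p 0.0241, within 0.0167 to 0.460 over 25 alternatives). OsKCO1 (TPKa), the tandem-pore channel of the lytic vacuole, had 0.11 ± 0.19 in Bala and 0.23 ± 0.19 in Azucena. OsTPK2 had -0.17 ± 0.19 in Bala and -0.10 ± 0.19 in Azucena, and OsTPK3 0.05 ± 0.26 in Bala and 0.39 ± 0.26 in Azucena. Without these 2 genes the counts of called members stayed at 6 in Bala and 7 in Azucena, while the shares and medians above include both.

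OsKCO2 read 32.8, 59 and 31.6 in Bala arsenate against 53.4, 77 and 115.8 in Bala control, and 42.7, 44.1 and 33 in Azucena arsenate against 68.3, 54.5 and 61.6 in Azucena control. Its groups overlapped in Bala and were apart in Azucena, where the change was -0.60 ± 0.32 (adjusted p = 0.204). OsHAK9 read 119.7, 95.2 and 187 in Bala arsenate against 224, 330.4 and 199 in Bala control, a change of -0.92 ± 0.32 (adjusted p = 0.101), and had -0.31 ± 0.32 in Azucena. OsHAK4 had 0.71 ± 0.27 in Bala and 0.41 ± 0.27 in Azucena, and OsHAK3 had 0.53 ± 0.38 in Bala and 0.59 ± 0.38 in Azucena. For OsHAK2 the change was 0.37 ± 0.24 in Bala and 0.08 ± 0.24 in Azucena, and for OsHAK18 it was 0.19 ± 0.23 in Bala and 0.32 ± 0.23 in Azucena. OsHAK15 had 0.15 in Bala and 0.21 in Azucena, OsHAK14 had -0.15 in Bala and 0.09 in Azucena, and OsHAK25 had 0.28 in Bala and -0.11 in Azucena.

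OsHAK17 (LOC4347211) had the widest errors among the members. It read 5.7, 0.3 and 10.1 in Bala arsenate against 33.8, 55.2 and 2.8 in Bala control, and 25.8, 20.0 and 47.8 in Azucena arsenate against 9.2, 3.8 and 3.4 in Azucena control. Azucena arsenate lay above its controls, whereas the Bala groups overlapped. Its change was -1.82 ± 0.90 in Bala (adjusted p = 0.225) and 2.13 ± 0.90 in Azucena (adjusted p = 0.123). A second probe set of OsHAK17 read 14, 9.7 and 35.1 in Azucena arsenate against 14.2, 9.8 and 9.2 in Azucena control. In Bala it read 4.7, 2 and 6.9 with arsenate against 26.1, 22.5 and 1.4 in control. The groups of this probe set overlapped in both varieties. Several of these signals lie below the filter value, and the added 2.1 then weighs on the log2 values.

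Whether the response differed between the varieties was tested as an interaction (the arsenate change in Bala minus that in Azucena). None of the 23 members passed by limma, where 0.0703% of all tested genes passed (0.0192% higher, 0.0512% lower). An unadjusted limma p below 0.05 was seen for 3 of the 23 members and for 1509 of all 15638 tested genes. The nearest was OsHKT1;5, with a difference of 2.34 ± 0.52 (adjusted p = 0.134), positive in 3 of 3 experiments. OsHAK17 followed with -3.95 ± 1.27 (adjusted p = 0.307), negative in 3 of 3 experiments. For OsHAK12 the difference was 0.93 ± 0.35 (adjusted p = 0.393), for OsHAK16 it was -1.31 ± 0.92 (adjusted p = 0.683) and for OsAKT1 it was 0.46 ± 0.39 (adjusted p = 0.750). The calls in a single variety are therefore not shown to differ between Bala and Azucena.

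The varieties themselves were compared with and without arsenate. Whether the members' shares differ from those over all tested genes was not tested. Under arsenate 1 of 23 tested members passed, or 4.35%, where 11.5% of all tested genes did (4.82% higher, 6.65% lower). That member was OsAKT1, higher in Bala by 1.24 ± 0.28 (adjusted p = 0.0179), with 222.9, 229 and 151 in Bala arsenate against 75.6, 79.2 and 94.3 in Azucena arsenate. Each Bala array was above each Azucena array. The OsAKT1 call was lost in 8 of 25 alternatives, within 0.00390 to 0.198. Among them were the fits without Azucena arsenate 1 (0.0687) or 2 (0.0665). Others were without Bala arsenate 1 (0.0938) or 2 (0.0872) and without the filter (0.0552). Without arsenate the controls of OsAKT1 were apart in the same direction, 644, 445 and 801 in Bala against 286, 363 and 442 in Azucena, but the difference of 0.77 ± 0.28 did not pass (adjusted p = 0.109).

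Without arsenate 2 of 23 tested members passed, or 8.70%, where 12.2% of all tested genes did (5.13% higher, 7.04% lower). OsHAK12 was lower in Bala control than in Azucena control by 1.28 ± 0.25 on the log2 scale, that is -1.28 (adjusted p = 0.00791). Its 3 Bala controls lay below all Azucena controls. The call was lost without experiment 1 (0.120) or 2 (0.0709), within 0.00302 to 0.120 over 25 alternatives. OsHKT1;5 was lower in Bala control as well, at -1.30 ± 0.36 (adjusted p = 0.0461), with overlapping groups. That call was lost in 17 of 25 alternatives, among them no replicate block (0.228), the 5th percentile pseudocount (0.0566), median centring (0.0695) and each fit without an Azucena array (0.0553 to 0.155), without Bala control 1 (0.153) or 3 (0.143) and without Bala arsenate 1 (0.0711), within 0.0138 to 0.313. Under arsenate the 2 genes had -0.36 ± 0.25 (OsHAK12, adjusted p = 0.417) and 1.04 ± 0.36 (OsHKT1;5, adjusted p = 0.105, but 0.0296 without Bala arsenate 2). Nearest to the threshold beside these were OsHAK11 under arsenate, at 0.47 ± 0.15 (adjusted p = 0.0815), and OsHAK4 without arsenate, at -0.79 ± 0.27 (adjusted p = 0.0912, but 0.0425 without Bala control 2). The varieties' contrasts share arrays with the arsenate contrasts. Sequence differences between the varieties at the probes were not examined.

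**Figure D3:**
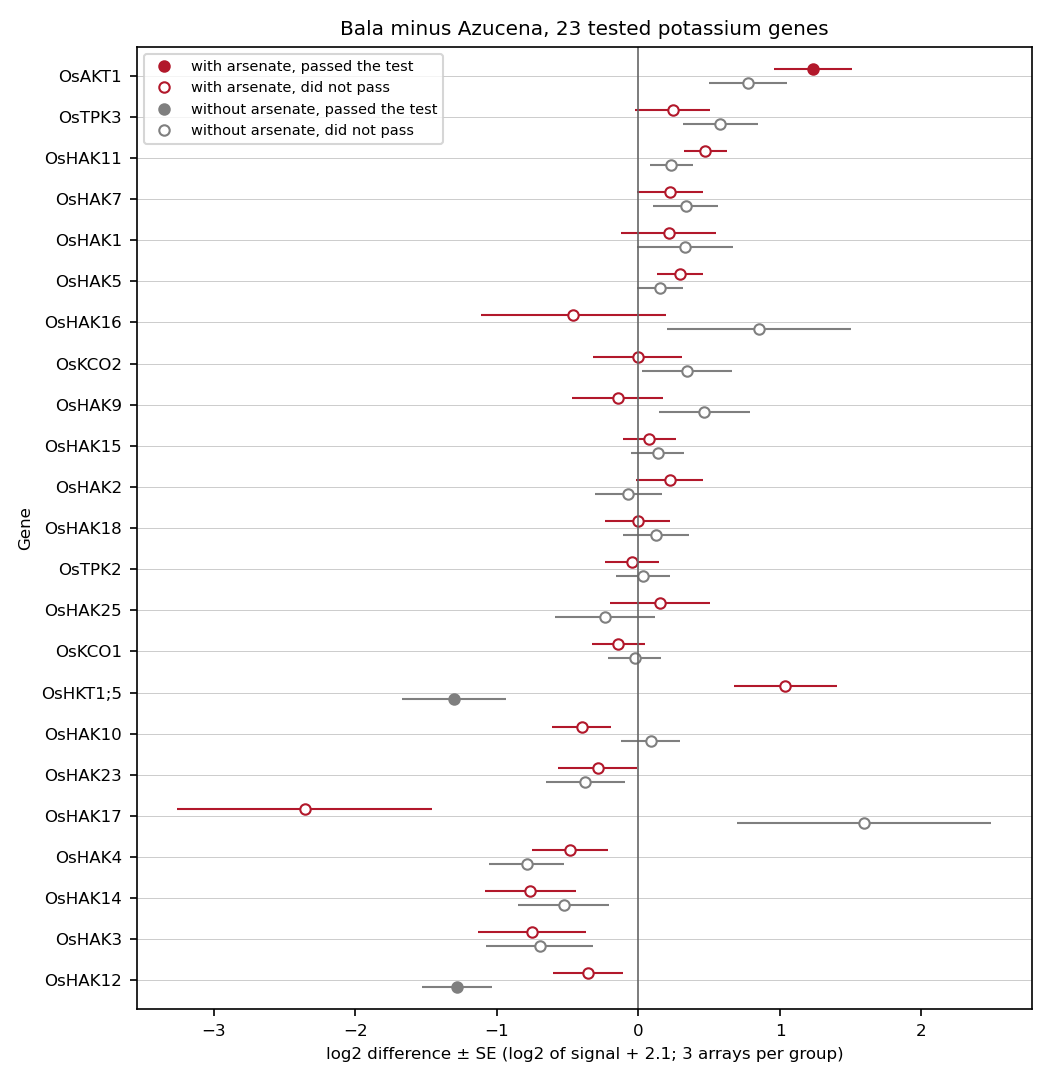
Log2 difference (Bala minus Azucena) with its standard error for the 23 tested members, with arsenate in red and without arsenate in grey; filled points passed the limma test. OsAKT1 passed with arsenate at 1.24, and OsHAK12 and OsHKT1;5 passed without arsenate at -1.28 and -1.30.

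Calcium sensors (CBL proteins) and the kinases they recruit (CIPK) are known to switch potassium channels and transporters on, and CIPK23 with CBL1 activates AKT1 in rice. Of 31 such genes 28 were tested. In Bala 1 rose and 2 fell, or 10.7% beside the 12.7% of all tested genes, with a median change of -0.08. In Azucena none rose and 6 fell, or 21.4% beside 22.7%, with a median of -0.20. These counts use 1 probe set per gene. A second probe set of OsCIPK02 rose in Azucena by 0.84 ± 0.21 (adjusted p = 0.0249), where the first had 0.37 ± 0.22 (0.272). A second probe set of OsCIPK12 passed as lower in Bala, at -1.16 ± 0.29 (adjusted p = 0.0333). OsCIPK31 (also OsCK1) read 17.5, 20.3 and 18.9 in Bala arsenate against 57.6, 69.0 and 115 in Bala control, and 20.9, 16.6 and 14.3 in Azucena arsenate against 143, 161 and 274 in Azucena control. The arsenate arrays of both varieties lay far below their controls, with changes of -1.92 ± 0.29 in Bala (adjusted p = 0.00432) and -3.28 ± 0.29 in Azucena (adjusted p = 3.08e-04). A second probe set of OsCIPK31 did not pass, with -0.93 in Bala (adjusted p 0.278) and -0.53 in Azucena (0.491).

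OsCIPK01 fell in both varieties, by 1.42 ± 0.25 in Bala (adjusted p = 0.00851) and by 1.10 ± 0.25 in Azucena (adjusted p = 0.0163). Its Azucena call was lost in 8 of 25 alternatives, within 0.00408 to 0.185. Among them were the fits without Azucena control 1 (0.0718) or 2 (0.0656) and without Azucena arsenate 1 (0.0597) or 2 (0.0686). OsCIPK10 and OsCIPK17 fell in Azucena, with -2.70 ± 0.49 (adjusted p = 0.00692, but 0.156 without the replicate block, within 8.41e-04 to 0.156 over 28 alternatives) and -2.33 ± 0.43 (adjusted p = 0.00688, but 0.0871 without experiment 1 and 0.0709 without experiment 2). In Bala they had -1.13 ± 0.49 (OsCIPK10, adjusted p = 0.175) and -0.57 ± 0.43 (OsCIPK17, adjusted p = 0.420), and the interaction was not past the test for either. The remaining calls, named after their values were seen, were CBL9 and OsCIPK14, lower in Azucena, and OsCIPK16, higher in Bala. OsCIPK23 did not pass, with -0.99 ± 0.34 in Bala (adjusted p = 0.0940) and -0.97 ± 0.34 in Azucena (adjusted p = 0.0735), and its second probe set had -0.08 ± 0.23 in Bala and 0.05 ± 0.23 in Azucena.

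**Figure D4:**
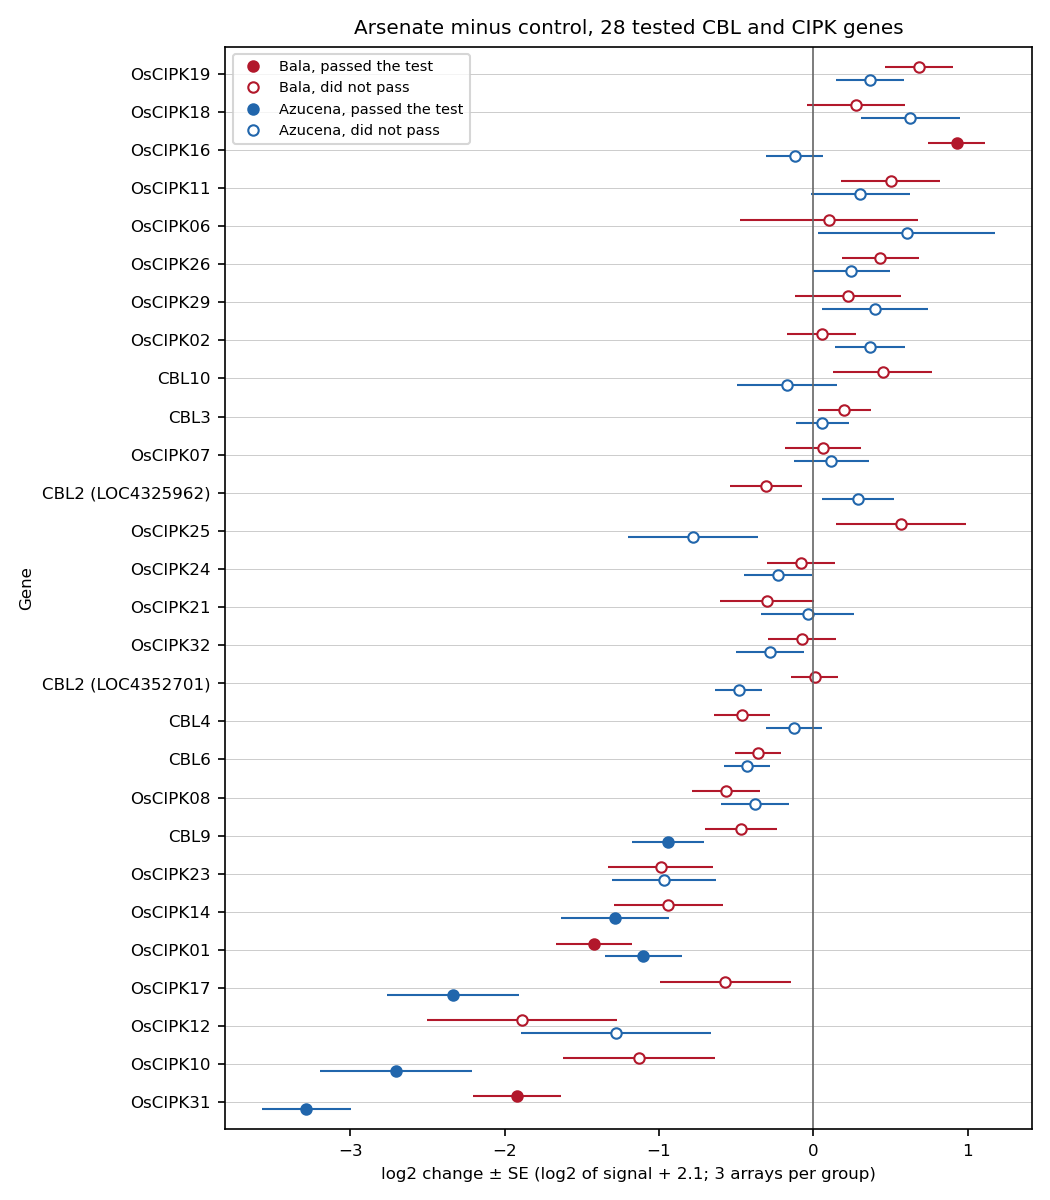
Log2 change (arsenate minus control) with its standard error for the 28 tested CBL and CIPK genes, with Bala in red above Azucena in blue; filled points passed the limma test. OsCIPK31 and OsCIPK01 passed in both varieties, and the calls in Azucena were all below 0.

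Of other cation channels 2 were measured. GLR3.1, of the glutamate receptor-like channels, passed in Azucena at 0.76 ± 0.23 (adjusted p = 0.0446) and had 0.43 ± 0.23 in Bala (adjusted p = 0.253). Its call was lost in 14 of 26 alternatives and its second probe set had the opposite sign. OsTPC1, a calcium-permeable cation channel, had -0.48 ± 0.32 in Bala and 0.10 ± 0.32 in Azucena. The lists of sodium and proton exchangers (NHX, SOS1, CHX, KEA) matched no gene. That of proton pumps matched only OsVP1, by its letters, and OsVP1 was below the filter. The annotation holds no description that makes OsVP1 a proton pump, so nothing is said here of proton pumps.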

How the data were processed

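The deposited values are intensity: MAS5 probe set signals made by the authors, per the submitters' processing notes, with no version named. Every array had a mean of 100 once 2% of the values at either end were trimmed, and none fell below 0, so the scale was read as linear. The scaling target is not given in the sources used here.

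Control probe sets (123) took no part in the tests. Of the other 57258, the annotation named 1 gene for 22436, several for 95 and none for 34727. The constant of 2.1 is the 25th percentile of all signals, and the filter of 9.4 their median, which 28461 probe sets passed. One limma 3.58.1 model (R 4.3.3) covered the 12 arrays, with a mean for each of 4 groups and a term for the experiment, leaving 6 residual degrees of freedom beside 2.85 from the prior. Adjusted p-values are Benjamini-Hochberg over all tested probe sets within a contrast. The procedure was tested on simulated data with independent normal noise and no effect of the experiment. Such data hold no differences in RNA quality or tissue content, so that test does not bear on these.

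The labels say that plants of a replicate number, in all 4 groups, were harvested together, so the number was used as a block. As a check of this pairing, deviations from the group mean had a median r of 0.131 over 18 pairs of arrays of the same number, and -0.0359 over 36 pairs of different number. The ranges were -0.0975 to 0.442 and -0.41 to 0.323. Deviations cancel out within a group, so the 2 medians are tied to each other and their contrast is no separate evidence for the block. Genes named are all members, with full values for those called and the 2 nearest the threshold in each contrast. From every related list up to 4 genes were named, those lowest in adjusted p over both arsenate contrasts. The members and lists were chosen with earlier results of these data known. Alternatives left out the block, each array or each experiment, or changed the pseudocount (5th, 50th percentile), filter (none, 70th percentile), normalization (quantile, median centring), limma options, arrays fitted or probe set. The number of arrays limits the precision. No sequence is printed.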

Additional observations from a re-analysis of the deposited data

How the results depend on the processing

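Of 16 called changes of members in the 5 contrasts, none turned its direction in any alternative. The call was lost in at least 1 fit without a single array for 10 of them, without an experiment for 15 and under some other alternative for 11. The cause was not tested. Without the replicate block 3 calls were lost, and the count of members that differed between controls was 1 in place of 2. The block changed no other call of a member. The number of members called was 0 to 8 over the fits without an array or an experiment: 0 to 7 for arsenate in Bala, 1 to 8 for arsenate in Azucena, 0 for their difference, 0 to 2 between varieties under arsenate and 0 to 3 between varieties without it. For arsenate in Bala, 3 were called with only the groups compared and 3 when Bala arsenate 3 and Azucena control 3 were both left out, a setting chosen after the data were seen. Between varieties under arsenate, 0 were called without the filter, 2 with the 70th percentile filter and 2 after quantile normalization. Between varieties without arsenate, 1 was called with the 5th percentile pseudocount, without the filter, under median centring, and when those 2 arrays were left out. With median centring, the median of all probe sets in Bala was -0.10, against 0.06 as reported, and 36.2% of all calls there were higher, against 52.1%. It left 5 members called in Bala (1 higher, 4 lower). The second probe set of GLR3.1 gave -0.26 in Azucena. Signals near or below 9.4 carry little information on size.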

Other observations

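For the probe sets used, in the controls of experiment 3, OsHAK1 was the lowest of its group in both varieties, and OsCIPK23 was too. OsCIPK23 read 4143, 4644 and 2004 in Bala control and 3168, 3124 and 1964 in Azucena control, in the order of the experiments. OsAKT1 had its highest control in experiment 3 in both varieties, at 801 in Bala and 442 in Azucena.

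Of the 28 tested calcium sensors and their kinases, 2 differed between the varieties with arsenate, or 7.14% beside 11.5% of all tested genes. Without arsenate 5 differed, or 17.9% beside 12.2%. OsCIPK24, the kinase known to activate the sodium exporter SOS1, was higher in Bala than in Azucena both with arsenate (1.42 ± 0.22, limma adjusted p = 0.00250) and without (1.27 ± 0.22, adjusted p = 0.00472). OsCIPK08 was lower in Bala with arsenate (-1.12 ± 0.22, adjusted p = 0.00918) and without (-0.93 ± 0.22, adjusted p = 0.0220). The control groups of OsCIPK08 overlapped. Also lower in Bala without arsenate were OsCIPK25 (-1.73 ± 0.42), OsCIPK31 (-1.24 ± 0.29) and CBL9 (-0.82 ± 0.23), all past the test. Second probe sets had -0.30 (OsCIPK31) and -0.01 (CBL9) and did not pass. These differences were picked out after the values were seen. OsCIPK24 and OsCIPK08 did not pass for arsenate in either variety.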
